A study of Hordeum vulgare with 21 samples.

Results

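Barley transcripts whose level in grain taken out of the steep stood well above that in dry grain and that after 1 and 5 days of germination are described here. They belong to 30 of the 35826 genes in the deposited tables. The members were chosen by measured values: a mean of at least 20 TPM out of the steep that was at least 4 times the mean in dry grain, at least 4 times the mean after 1 day of germination and at least 4 times the mean after 5 days. TPM is a relative transcript abundance corrected for transcript length that sums to the same total in each library. The peak out of the steep and its height over dry grain, day 1 and day 5 follow from this choice and are given as descriptions, without a test. Levels on days 2, 3 and 4 were not used in the choice.

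All samples were whole grain of Hordeum vulgare cultivar Conrad, a 2-row spring malting barley, from 1 pooled grain lot, at 7 stages with 3 libraries each (replicates A, B and C). Dry libraries were unmalted mature grain. DoG0 libraries were grain at the end of a 38 h steep that alternated water and air rest, with 0 days of germination, and DoG1 to DoG5 were grain after 1 to 5 further days of moist germination, collected every 24 h. The malted stages came from 3 malting runs of 110 g each, with no genotype or agent differing between groups, so each comparison is between times within 1 cultivar and 1 lot.

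Malting lets grain take up water and begin to germinate before it is dried. Dry grain carries messenger RNA stored from seed development, and on wetting the living tissues, the embryo and the aleurone layer, resume respiration and transcription. Under water the grain has little oxygen, and air rests between immersions relieve this. Messages can be made early and removed within a day as the grain passes from steeping to growth. RNA of the whole grain pools all tissues, so a lower share of a transcript and fewer cells or less RNA of a tissue that holds it cannot be told apart.

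The files do not pair the gene IDs, which start with HORVU.MOREX.r3, with names, and 0 of the 30 members matched the reference table of 58438 barley genes. No function is therefore given for any member, tissue markers were not checked, and no sequence is shown. The first 2 members named below had the highest mean TPM out of the steep, and the other named pair had the largest ratio of that mean to the next highest stage. Other members are referred to by their rank, from 1 for the highest mean TPM out of the steep to 30 for the lowest. The chromosome code is part of each ID: 7 members lay on 5H, 5 each on 3H, 4H and 7H, 3 each on 2H and 6H and 2 on 1H.

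Together the 30 members took up 1.92% ± 0.597 of all TPM out of the steep (SD, n = 3), against 0.211% ± 0.0970 in dry grain and 0.388% ± 0.0997 at day 1. Replicates A, B and C gave shares of 1.37%, 2.55% and 1.83% out of the steep and of 0.290%, 0.103% and 0.240% in dry grain. Every out-of-steep library lay above every other library in this sum. By TPM so did each member taken alone: in 30 of 30 the lowest out-of-steep library was above all 18 libraries of the other stages. The same held for 11.3% of the tested genes, and the choice itself favours it. It also held for 45.8% of the 773 other genes with at least 20 TPM out of the steep and 4 times their dry mean. On counts scaled between libraries as for the tests, it failed for ranks 4, 12 and 26. Their dry replicate A, at 470.7, 125.7 and 17.8 in these units, lay above out-of-steep replicate A, at 416.6, 113.9 and 17.0. At day 2 the share was 0.0821% ± 0.0344, at day 3 0.1004% ± 0.0237, at day 4 0.0747% ± 0.00284 and at day 5 0.127% ± 0.0463 (SD, n = 3 each). The members thus held a smaller mean share on each of days 2 to 5 than in dry grain. Single libraries overlapped, as DoG2 replicate C (0.122%), DoG3 replicate A (0.126%) and DoG5 replicate A (0.180%) lay above dry replicate B. The other libraries of days 2 to 5, all of day 4 among them, lay below every dry library. Without the 10 most abundant members the out-of-steep share was 0.529%.

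**Figure D1:**
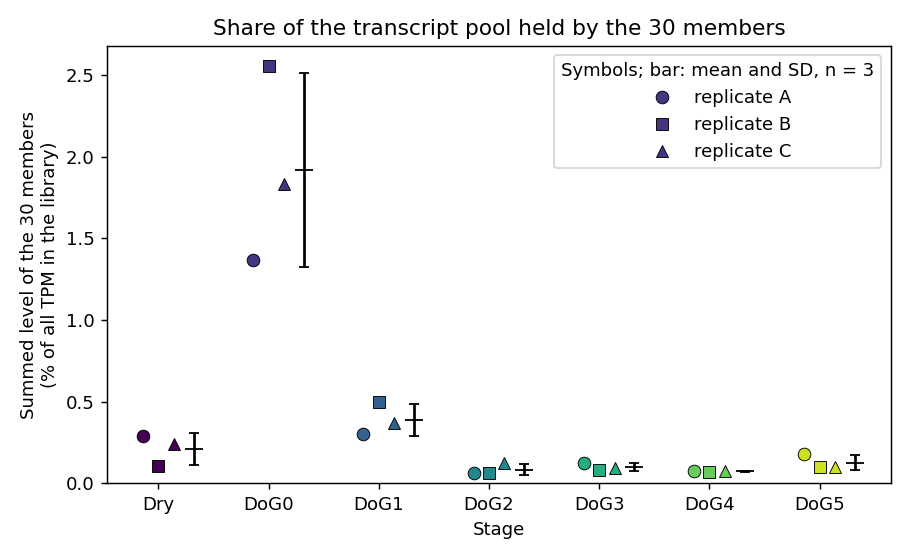
Summed level of the 30 members as a percent of all TPM in each library (vertical axis, linear from 0) at the 7 stages; symbols are single libraries and bars the mean and SD of 3. The out-of-steep libraries sit at 1.37% to 2.55% and all other libraries at or below 0.496%.

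Levels within the group spanned a wide range. Out of the steep, 7 members had a mean of at least 1000 TPM, 16 had 100 to 1000 TPM and 7 had less than 100 TPM, and the 8 most abundant held 65.8% of the summed level. The median member went from 39.0 TPM in dry grain to 389.7 TPM out of the steep, 86.4 TPM at day 1 and 10.4 TPM at day 2. The out-of-steep mean exceeded the dry mean by 4.01 to 173 times (median 10.7), the day 1 mean by 4.01 to 12.3 times (median 4.77) and the day 5 mean by 5.20 to 548 times (median 18.0). Day 1 was the next highest stage in 25 members and dry grain in 5.

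**Figure D2:**
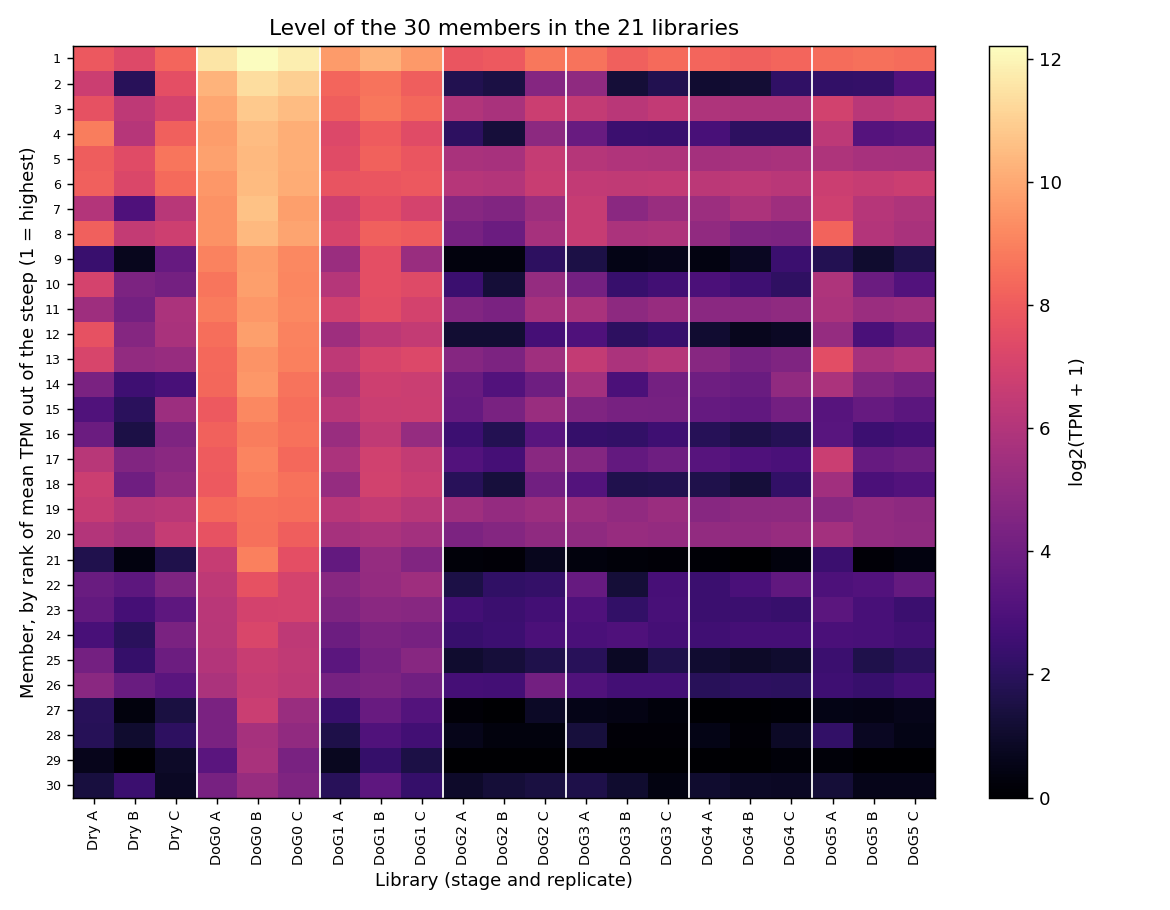
Level of each member (rows, by rank of mean TPM out of the steep) in each of the 21 libraries (columns), as log2(TPM + 1) on the colour scale. The brightest cells of every row are the 3 DoG0 libraries, and rows differ in how dark they become from DoG2 on.

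HORVU.MOREX.r3.7HG0661420 was the most abundant member, and 6 genes of the whole table stood above it out of the steep. It had 240.9, 157.05 and 308.04 TPM in dry replicates A, B and C and 3044.93, 4746.90 and 3627.01 TPM out of the steep. At day 1 it had 808.22, 1247.05 and 793.69 TPM, and from day 2 to day 5 its libraries ran from 222.38 to 425.37 TPM. The transcript thus came back after its peak to levels near those of dry grain: libraries of days 2, 3 and 4 overlapped the dry ones, and all 3 of day 5 lay above them. Its out-of-steep mean was 4.01 times the day 1 mean, the closest of all members to the limit of the choice.

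HORVU.MOREX.r3.5HG0490420, the second most abundant, had less of its message left after the peak. It had 108.4, 2.80 and 188.24 TPM in dry replicates A, B and C, 1256.46, 2648.04 and 2017.23 TPM out of the steep and 305.04, 399.29 and 273.53 TPM at day 1. On day 2 it was at 2.37, 1.79 and 24.64 TPM, on day 3 at 30.34, 1.39 and 2.31 TPM and on day 4 at 1.18, 1.35 and 3.51 TPM. Day 5 libraries held 3.69, 3.77 and 7.60 TPM. Dry replicate B stood far below the other dry libraries, at 22 counts against 1264 in A and 1457 in C, and DoG2 replicate C and DoG3 replicate A stood above the others of their stage. From day 2 to day 4, an interval outside the choice, its log2 fold change was -2.22 (SE 1.36, edgeR quasi-likelihood test, adjusted p = 0.320), and from day 3 to day 4 it was -2.53 (SE 1.34, adjusted p = 0.549). Neither passed the threshold of 0.05. Without DoG2 replicate C the first value was -0.05, and without DoG3 replicate A the second was 0.10.

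The sharpest peaks belonged to HORVU.MOREX.r3.6HG0628120 and HORVU.MOREX.r3.6HG0628090, which are 30 apart in ID number with 1 other gene of the table between them. HORVU.MOREX.r3.6HG0628120 had 2.20, 0.27 and 2.10 TPM in dry replicates A, B and C, 97.08, 508.64 and 184.97 TPM out of the steep and 11.6, 34.92 and 22.39 TPM at day 1. From day 2 to day 5 it was at or below 0.64 TPM in 11 of 12 libraries and at 4.44 TPM, 110 counts, in DoG5 replicate A. HORVU.MOREX.r3.6HG0628090 had 0.55, 0 and 0.90 TPM in dry grain, 9.43, 53.59 and 19.21 TPM out of the steep and 0.66, 4.03 and 1.97 TPM at day 1. It had no count in any of the 6 libraries of days 2 and 3, where 3 counts would be 0.0986 to 0.107 CPM (a count scaled by the library total, a limit that covers counting error only). Their out-of-steep means were 11.5 and 12.3 times those of day 1, the next highest stage. Both therefore all but vanished from the libraries of days 2 to 4. At day 5 HORVU.MOREX.r3.6HG0628120 stood above all its dry libraries in replicate A. HORVU.MOREX.r3.6HG0628090 had 4 counts in all at day 4 and 3 at day 5.

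These neighbours also moved together between libraries. In replicates A, B and C out of the steep HORVU.MOREX.r3.6HG0628120 was 10.3, 9.49 and 9.63 times as abundant as HORVU.MOREX.r3.6HG0628090, while each differed over 5-fold between replicates A and B. The 2 are not fully separate measurements. Expected counts that are not whole mark reads shared between genes, both had such counts in the same 6 libraries, and their counts added up to a whole number in all 21. The gene between them in the table had no more than 0.08 TPM in any dry, DoG0, DoG1 or DoG5 library.

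**Figure D3:**
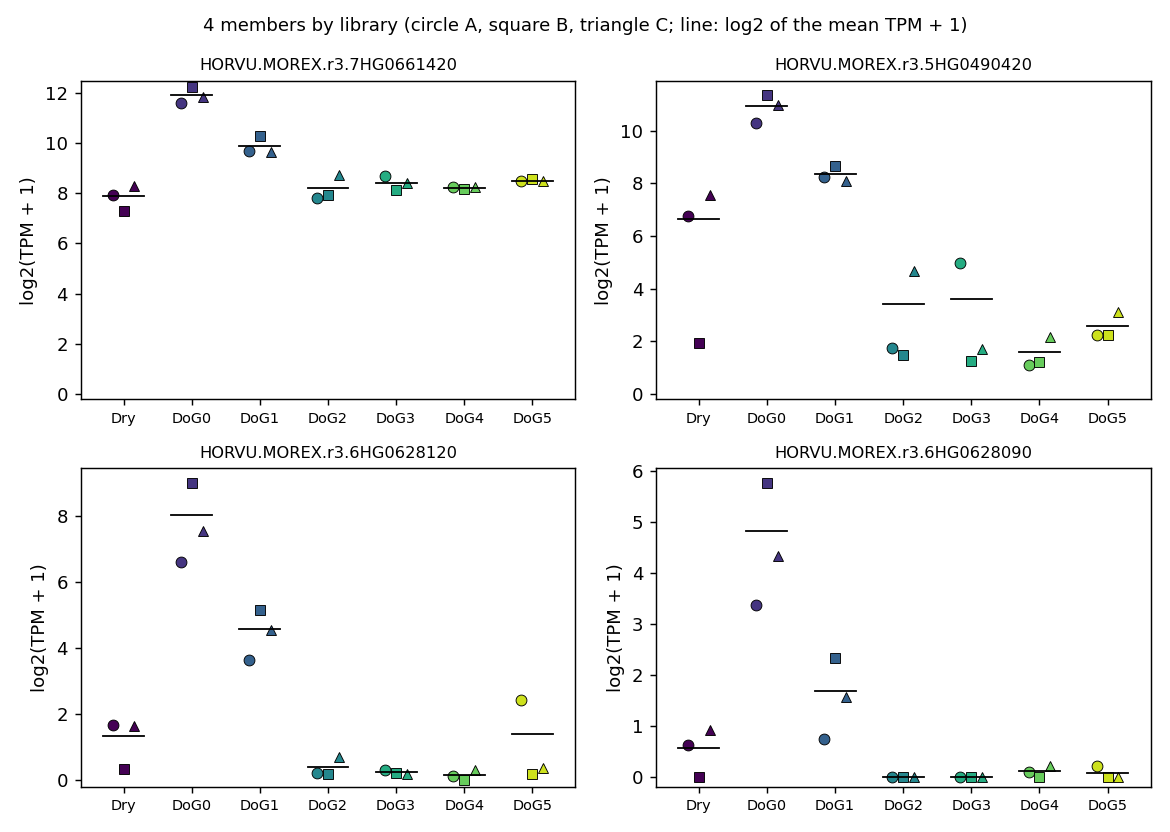
log2(TPM + 1) of the 4 named members in each library (symbols, by replicate) at the 7 stages, with a line at the log2 of the stage mean. HORVU.MOREX.r3.7HG0661420 has a day 2 mean of 297.4 TPM against 235.3 TPM in dry grain, whereas the other 3 lie below their dry mean at day 2.

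A similar neighbourhood lay on 7H. The members of rank 10 and 12 are 40 apart in ID number, with 2 other genes of the table between them. Rank 10 had 420.03, 851.6 and 569.15 TPM out of the steep in replicates A, B and C and rank 12 had 369.92, 875.54 and 529.06 TPM. One of the genes between them, which is no member, had 345.94, 779.18 and 549.83 TPM in the same libraries, 7.23 times its dry mean but 3.19 times its day 1 mean, so it missed the limit at day 1. The other gene between them was at or below 0.18 TPM out of the steep. All 3 of the abundant genes had fractional counts, rank 10 in 11 libraries and rank 12 in 17, so part of their reads was shared with similar genes.

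Among the other abundant members, several kept a measurable level after the peak. Rank 3, on 5H, had 199.28, 80.90 and 128.38 TPM in dry replicates A, B and C, 983.88, 1830.23 and 1450.54 TPM out of the steep, 270.73, 435.72 and 315.32 TPM at day 1 and 57.49, 55.80 and 56.93 TPM at day 4. Rank 6, on 1H, went from 283.01, 148.95 and 340.68 TPM in dry grain to 765.67, 1413.74 and 1086.73 TPM and was at 77.22, 78.90 and 74.82 TPM at day 4. Their day 4 libraries lay close together and below all dry libraries. On days 2, 3 and 5 some libraries of rank 3 lay above dry replicate B, at up to 105.05, 90.9 and 122.97 TPM. Those of rank 6 stayed below all dry libraries on these days. Rank 7, on 4H, differed: it had 64.62, 7.18 and 72.12 TPM in dry grain, 692.81, 1602.96 and 864.02 TPM out of the steep and 40.34, 56.24 and 42.16 TPM at day 4, inside the range of the dry libraries.

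The member with the lowest coefficient of variation out of the steep, 9.39%, was rank 19, on 6H. It had 95.11, 66.10 and 72.76 TPM in dry grain, 328.02, 396.09 and 365.03 TPM out of the steep, 72.89, 90.93 and 71.96 TPM at day 1, 42.53, 33.78 and 40.04 TPM at day 2 and 26.11, 28.31 and 29.21 TPM at day 4. The libraries of day 1, day 2 and day 4 did not overlap, each of these days lying below the one before. Those of day 3, at 39.11, 31.23 and 38.75 TPM, overlapped day 2. Those of day 5, at 26.57, 32.94 and 30.02 TPM, overlapped day 4. The least abundant member, rank 30 on 2H, had 18.1, 36.49 and 22.03 TPM out of the steep and 1.07, 0.83 and 0.78 TPM at day 4.

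Fractional counts, those not whole within a tolerance of 1e-09, were found in 1 or more libraries for 12 of the 30 members, beside 18.5% of the 20637 genes that passed the filter on low counts. In 7 of the 12 they appeared in 1 library, and in 5 in at least 6 libraries. The member of rank 26 had them in all 21. The split of reads between such genes is uncertain, and the other 18 members had whole counts throughout.

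Members were mostly shorter than the other genes at 4 times their dry level or more. Relative transcript length (expected count divided by TPM, with the median tested gene at 1) had a median of 0.776 among members, with a range from 0.243 to 1.87, and 22 of 30 lay under 1. The 773 other genes with at least 20 TPM out of the steep and at least 4 times their dry mean had a median of 1.47, with quartiles of 0.958 and 2.13. The 7779 other genes at 20 TPM or more out of the steep, whatever their dry level, had a median of 1.08. These differences were not tested. Of those 773 genes 766 missed the limit at day 1 and 563 that at day 5, so their higher levels on the days between largely follow from the choice. Their median day 2 level was 45.4% of the out-of-steep level, against 2.75% in the members. In the 210 genes that missed the limit at day 1 alone it was 18.8%, with a median day 1 level of 54.8%. The median day 4 level was 42.6% in the 773, 15.8% in the 210 and 3.43% in the members.

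**Figure D4:**
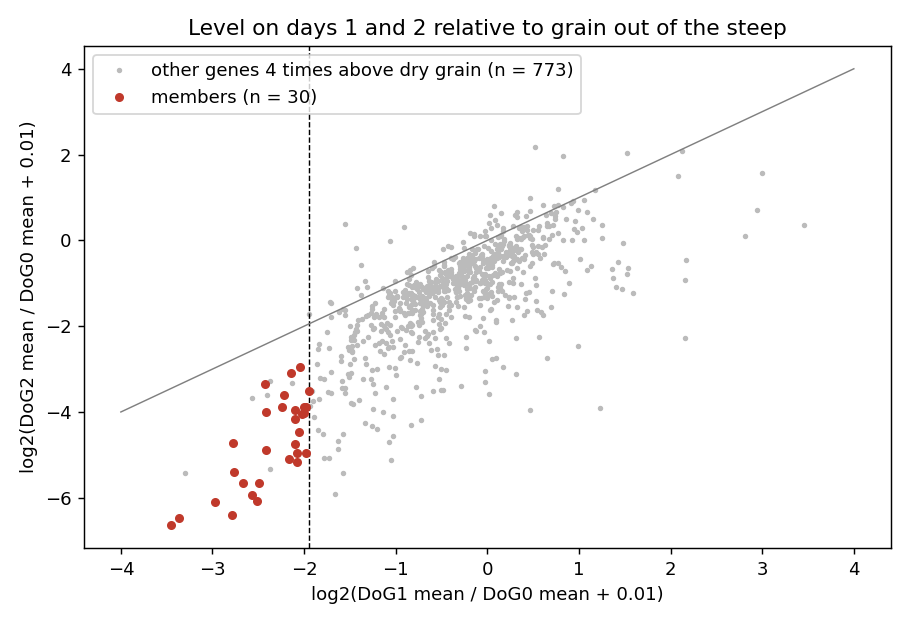
Mean level at day 1 (horizontal axis) and day 2 (vertical axis) as a fraction of the out-of-steep mean, both as log2(fraction + 0.01), for the 30 members and the 773 other genes at least 4 times above dry grain. The dashed line marks the limit of the choice at day 1, the solid line equal levels on both days; all members lie below the solid line, with median levels of 20.95% at day 1 and 2.75% at day 2.

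The fall went on through the second day in every member. Mean TPM at day 2 was below that of day 1 in 30 of 30, at 0% to 51.4% of it with a median of 14.4%. In 29 of 30 the libraries of the 2 days did not overlap, beside 35.7% of tested genes with day 2 lower. The 773 other genes 4 times above dry grain mostly shared this fall, with 78.5% having all day 2 libraries below all day 1 libraries. Among all tested genes the median ratio of day 2 to day 1 was 0.875, and the mean was higher at day 2 in 37.0%. Day 1 levels had been used in the choice, so this step was not tested. By day 2, 28 members were under 10% of their out-of-steep level. On days 2, 3 and 4 all 30 members were also at least 4 times lower than out of the steep. The choice set no limit on these days, but it set that limit on the stages just before and just after them. Low levels in between are therefore favoured by the choice, and this count is a description only. Neither it nor the count of 28 members under 10% was set beside a share of other genes.

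Most members had lower means on days 2 to 5 than in dry grain. The day 2 mean was lower than the dry mean in 27 members, beside 30.8% of all tested genes. Over all members its median was 31.8% of the dry mean. All day 2 libraries lay below all dry ones in 11 members, beside 17.9% of tested genes. The means of 24 members at day 3, 28 at day 4 and 23 at day 5 were also below dry grain, beside 31.2%, 30.1% and 29.8% of tested genes. Libraries did not overlap in 10 members at day 3, beside 17.9% of tested genes, in 18 at day 4, beside 17.7%, and in 5 at day 5, beside 15.4%, so at day 5 the members' count was close to the background. Dry levels had been used in the choice, and none of these counts was tested. Rank 4 shows the pattern: 478.31, 69.83 and 283.78 TPM in dry replicates A, B and C, 848.44, 1460.09 and 1121.13 TPM out of the steep, and 3.21, 1.45 and 29.03 TPM at day 2. Rank 9 had little message in dry grain, 4.25, 0.60 and 12.47 TPM, reached 524.16, 840.12 and 583.89 TPM and was at 0.25, 0.22 and 3.25 TPM at day 2. In its case dry and day 2 libraries overlapped, so the peak stood on low levels at both ends. At the other extreme, 10 members kept at least 20 TPM on each of days 2, 3 and 4, and 4 were under 1 TPM on all 3 days.

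Changes among days 2, 3 and 4 were tested across all 20637 genes that passed the filter on low counts, 30 members included. From day 2 to day 3 none of the members passed (edgeR quasi-likelihood test, adjusted p under 0.05), beside 1.98% of all tested genes, and 1 of the 30 had an unadjusted p under 0.05. The median log2 fold change was 0.20 in members and 0.01 in all tested genes. From day 3 to day 4 again none of the members passed, beside 0.15% of all tested genes, and 5 had an unadjusted p under 0.05. Here 27 of 30 fitted fold changes were negative, with a median of -0.55, beside 50.7% of fold changes over all tested genes. By mean TPM 26 members were lower at day 4 than at day 3, and 20 were when DoG3 replicate A was left out.

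From day 2 to day 4, 1 of the 30 members passed the test, or 3.33%, beside 9.31% of all tested genes in either direction and 4.82% in the direction of a fall. It was rank 26, on 3H, the member with fractional counts in all libraries, and it is singled out here after its values were seen. It had 5.76, 5.50 and 16.5 TPM in replicates A, B and C at day 2 and 2.86, 3.26 and 3.02 TPM at day 4, without overlap (log2 fold change -1.61, SE 0.48, edgeR adjusted p = 0.0451). The call was lost with the replicate letter as a block, without DoG2 replicate C, without any 1 of the DoG4 libraries, and with no filter on low counts. With 1 call among 30, the share of 3.33% allows no reading of how often members changed relative to other genes. Members at 5 TPM or more also varied more between day 2 libraries, with a median coefficient of variation of 41.1% beside 7.12% for tested genes at that level.

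The model above shares 1 estimate of spread over all 7 stages, unmalted dry grain included. When only the 6 libraries of days 3 and 4 were fitted, 26 members could be tested and 8 of them fell (adjusted p under 0.05), beside 3.59% of 19069 tested genes. The clearest was rank 13, with 88.98, 55.01 and 67.6 TPM at day 3 and 25.59, 17.49 and 22.01 TPM at day 4 in replicates A, B and C (log2 fold change -1.73, SE 0.21, edgeR adjusted p = 0.0114 in that fit and 0.336 with all libraries). Its day 3 libraries also lay above those of day 2, at 25.04, 20.29 and 43.29 TPM, and it was the 1 member of 27 called higher in the 6-library fit of days 2 and 3, beside 6.43% of tested genes. In the 6-library fit of days 2 and 4, 2 of 26 members were lower, beside 18.6% of tested genes, and 1 was higher, beside 18.1%. The fall of members from day 3 to day 4 therefore passed a test only in the fit restricted to those days.

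Late levels did not decline steadily. Mean TPM rose from day 4 to day 5 in 27 of 30 members, by a median ratio of 1.61, beside 46.1% of all tested genes with a median ratio of 0.986. In 17 members all day 5 libraries lay above all day 4 libraries, beside 6.69% of tested genes. Without DoG5 replicate A the mean was higher in 23. The day 5 level had been limited by the choice, so no test is given. A sequence of higher at day 3, lower at day 4 and higher at day 5 was seen in 15 of 30 members and in 14.04% of all tested genes. The number of members with a higher mean at day 3 than at day 2 turned on single libraries: it was 17 with all libraries, 27 without DoG2 replicate C and 13 without DoG3 replicate A.

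Single libraries moved many members at once. Out of the steep, replicate B was the highest in 29 of 30 members and replicate A the lowest in 30. Among all tested genes B was the highest in 26.2% and A the lowest in 28.0%. The ratio of B to A ran from 1.21 to 5.68, with a median of 2.02 in members, 0.988 in the 773 other genes 4 times above dry grain and 0.909 in all tested genes. At day 1 replicate B was again the highest in 24 members and A the lowest in 23, beside 22.9% and 29.3% of all tested genes. The order B over C over A at both stages was seen in 16 members, or 53.3%, beside 2.48% of all tested genes. The labels do not say that a letter follows 1 malting run through the stages. In dry grain, where replicates are unmalted, the order differed: replicate B was the lowest in 27 members, beside 16.3% of all tested genes, and A and C were the highest in 15 and 14. The libraries of dry grain, DoG0 and DoG1 had been used in the choice, so the order and spread of replicates there are a description only. Among members at 5 TPM or more the median coefficient of variation was 34.9% out of the steep (30 members) and 66.5% in dry grain (25 members), beside 12.2% and 22.0% for tested genes at that level. On days not used in the choice it was 41.1% at day 2 (21 members), 27.1% at day 3 (20 members) and 8.40% at day 4 (15 members), beside 7.12%, 8.21% and 6.42%.

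**Figure D5:**
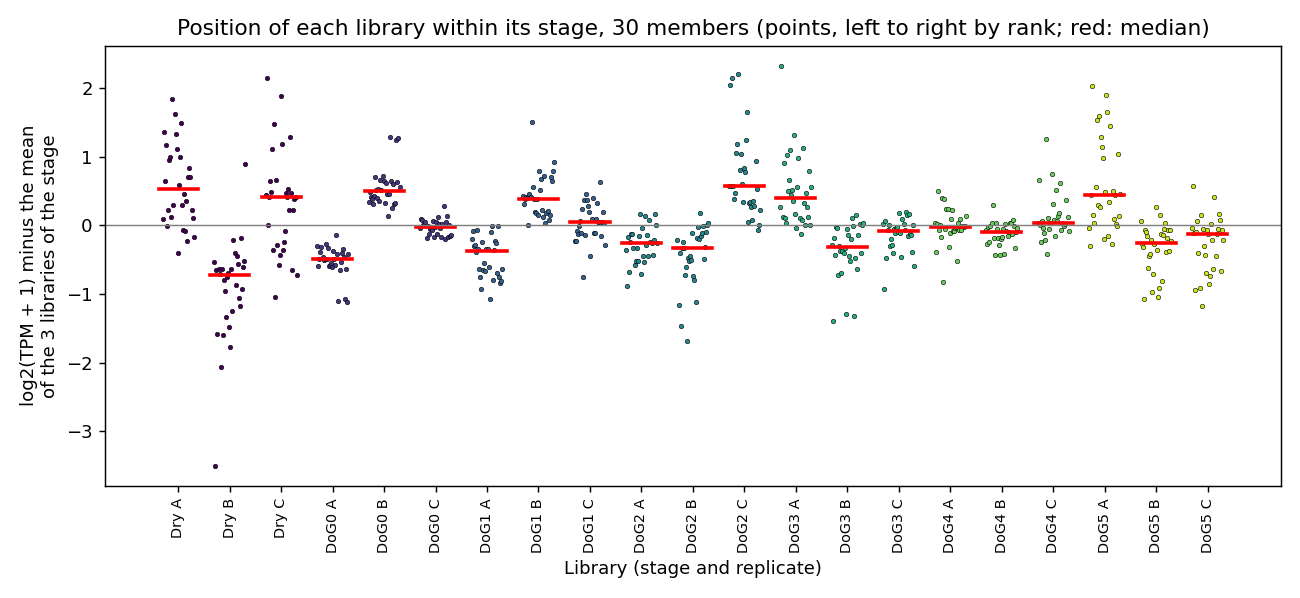
For each library, log2(TPM + 1) of the 30 members (points) minus the mean of the 3 libraries of that stage, with the median in red. Medians lie above 0 in DoG0 B, DoG1 B, DoG2 C, DoG3 A and DoG5 A and below 0 in Dry B, DoG0 A and DoG1 A, whereas the DoG4 libraries lie close to 0.

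After day 1 other libraries stood out. DoG2 replicate C was the highest of its stage in 27 members, DoG3 replicate A in 26 and DoG5 replicate A in 22. Among all tested genes these libraries were the highest in 41.0%, 34.3% and 32.5%. They were at least 2 times both other libraries in 12, 9 and 12 members, beside 1.91%, 3.66% and 3.31% of all tested genes. Rank 8 had 18.19, 13.63 and 49.24 TPM in DoG2 replicates A, B and C, 95.21, 54.02 and 58.05 TPM in DoG3, 31.34, 20.71 and 20.16 TPM in DoG4 and 295.97, 65.12 and 53.35 TPM in DoG5. Its DoG5 replicate A lay above its highest dry library, 283.22 TPM in replicate A. Of the 12 members with DoG5 replicate A at least 2 times both others, 9 were highest in dry replicate A, as were 6 of the other 18. The median relative length was 0.595 in the 12 and 0.875 in the 18. Total expected counts were 29733605 in DoG5 replicate A, 30229259 in DoG3 replicate A and 28104928 in DoG2 replicate C, within the range of all libraries, 18145400 to 31582116. The part of these single libraries in the stage means of days 2, 3 and 5 was not tested beyond leaving each out.

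Membership depended on these libraries too. With DoG0 replicate B left out 12 genes met the limits, all of them members, and with DoG1 replicate A left out 18 did, whereas 49 genes did without DoG0 replicate A. A fold of 3 in place of 4 gave 79 genes and a fold of 6 gave 9. Close to the limits, the members of rank 1, 5 and 13 exceeded their nearest limiting stage by 4.01, 4.01 and 4.11 times, and the 3 nearest genes outside by 3.97, 3.92 and 3.85 times. The lowest out-of-steep mean inside was 25.5 TPM, and the highest outside among genes that met the fold limits was 19.2 TPM. No gene had every out-of-steep library at least 4 times every dry, day 1 and day 5 library at 20 TPM or more.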

How the data were processed

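Poly-A selected RNA of whole grain was sequenced with a kit that keeps the strand, per the labels' protocols. The authors deposited expected counts (estimated read counts) and TPM per gene. Per the submitters' processing notes the tools were STAR and RSEM, in unstated order and version. The sources used here do not state the build, annotation, strand setting or read filters. The members and lists were chosen with earlier results of these data known. Members named by ID are the 2 with the highest mean out of the steep and the 2 with the largest ratio of that mean to the next stage.

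Members were found on mean TPM of replicates A, B and C. Expected counts were rounded, filtered with filterByExpr (minimum count 10, minimum total 15; 20637 genes kept, all 30 members among them), scaled by TMM and fitted with 7 stage means over 21 libraries (edgeR 4.0.16 quasi-likelihood test, R 4.3.3), with Benjamini-Hochberg adjustment over tested genes and a threshold of 0.05. Standard errors are the absolute log2 fold change over the square root of F. The fit was also run on simulated counts, where it missed part of the changes put in, so a gene not called may still have changed. Relative length used libraries with at least 10 counts and 0.5 TPM. The ratio for naming members used a pseudocount of 0.5 TPM.

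Same-letter libraries of DoG2 and DoG4 deviated together across genes (correlations 0.135, 0.124 and 0.184). Those of DoG2 and DoG3, and of DoG3 and DoG4, did not. Libraries of different letters reached 0.363 (DoG1 C and DoG5 A), and unmalted dry replicate B gave 0.159 with DoG2 replicate B. Values of this size therefore do not settle whether letters are paired. The main fit has no block, and a fit with one is given as an alternative. P-values of the main fit rest on a spread shared over all stages of 1 lot, which may be technical. It pools the spread between malting runs with that between unmalted dry libraries. Those of the 6-library fits rest on malted libraries alone. Every pair of replicates differed beyond counting noise, by 8.92 to 136 chi-square units per degree of freedom. Alternatives were other scalings, no filter, DESeq2 1.42.0, limma 3.58.1 on log2(TPM + 1) and log2(TPM + 0.1), 6-library fits, a block, left-out replicates and other limits for membership.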

Additional observations from a re-analysis of the deposited data

How the results depend on the processing

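The number of members, 30, became 79 with a fold of 3, 9 with a fold of 6, 0 when every library had to meet the limits, and 12 to 49 when 1 library of dry grain, DoG0, DoG1 or DoG5 was left out; medians gave 32 genes and CPM 26, of which 19 and 20 were members. The share of TPM out of the steep, 1.92%, was 0.529% without the 10 most abundant members and 1.60% to 2.19% with 1 library left out. From day 2 to day 3, 409 genes were called, 1097 with DESeq2, 2440 with 6 libraries and 75 to 178 with 1 library left out; members higher were 0, and 1 with 6 libraries. From day 3 to day 4, 31 genes were called, 18 with scaling by library size, 20 with no filter, 56 with limma on log2(TPM + 1), 220 with DESeq2, 1163 with 6 libraries and 1 to 9 with 1 library left out; members lower were 0, and 8 with 6 libraries. From day 2 to day 4, 1921 genes were called, 7033 with 6 libraries and 730 to 988 with 1 library left out; members higher were 0, and 1 with 6 libraries; members lower were 1, 2 with 6 libraries, 0 with no filter, 0 with the replicate block and 0 to 1 with 1 library left out. For HORVU.MOREX.r3.5HG0490420 the value with 1 library left out ran from -2.90 to -0.05 for days 2 to 4 and from -3.20 to 0.10 for days 3 to 4, against -2.22 and -2.53. The cause of these differences was not tested. Same-letter deviations correlated across genes above 0.1 in 8 of 45 pairs of malted libraries (median 0.02), among them all 3 pairs of DoG2 and DoG4. With the replicate block 275, 23 and 1623 genes were called from day 2 to 3, day 3 to 4 and day 2 to 4, and the 1 member called from day 2 to day 4 was the only call among members that it changed. The counts without single libraries in the report were added after the data were seen. Depth limits members near 0 after day 1, where 3 counts correspond to 0.0986 to 0.165 CPM.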
